A study of Danio rerio with 56 samples.

Results

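RNA of zebrafish embryos whose parents had both eaten benzo[a]pyrene (BaP) was compared with RNA of embryos of BaP-fed mothers and control fathers. All of these embryos had BaP-fed mothers, so the diet that differs between the crosses is the father's. The crosses may also differ in spawning or tank, which cannot be told apart from the diet. The members are the 8 RNA-seq libraries titled as BaP at 10 hours post fertilisation (hpf; 4 libraries, here "both parents") and as control male by BaP female (4 libraries, here "mother only"), out of 24 RNA-seq libraries and 56 samples in all. The first title does not name the parents. It was read as both parents because the other 3 crosses of the breeding design have titles of their own. BaP-fed fish ate flakes dosed at 25 µg BaP for each g of body weight, or 1250 µg for each g of food, over 21 days, and control fish ate acetone-treated flakes. All parents were 5D strain fish given as 120 days old, and none was exposed while eggs were collected. The same contrast of the father's diet under control mothers was available in another 8 libraries, 4 from BaP-fed fathers and control mothers ("father only") and 4 from control parents ("control"). Their values are set beside the main contrast only to show where the response differed. All 16 embryo libraries entered the same fit, however, so these 8 also bear on its spread, filter and scaling. The labels do not say how many embryos were pooled in a library or which tank or spawning it came from, so all p-values measure the spread between these libraries, which may be technical.

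BaP is a polycyclic aromatic hydrocarbon that binds the aryl hydrocarbon receptor. The receptor then induces cytochrome P450 enzymes, which turn BaP into metabolites that bind DNA. A father passes on his genome and its chromatin, with little RNA, whereas a mother also fills the egg with RNA. By 10 hpf a zebrafish embryo has finished gastrulation, most stored egg RNA has been degraded and the embryo's own genes are active. The tables carry transcript identifiers and no gene names, and 0 of 57192 identifiers matched the reference tables used here. No aryl hydrocarbon receptor target, stage marker or other gene could therefore be looked up, no sequence is shown, and the results are given for transcripts and for classes of transcripts. In whole embryos, fewer cells of a type and less RNA per cell cannot be told apart.

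The libraries held 29096693 to 33849499 estimated counts with both parents BaP-fed and 29855819 to 35659047 with the mother only, within the range of 26010776 to 38130629 of all 16 embryo libraries. The 4065 egg-enriched transcripts were at least 3 higher on the log2 scale in control eggs than in control embryos. Each had at least 2 CPM (counts scaled to a common library total) in control eggs. They took 0.903% to 1.81% of the counts with both parents and 0.834% to 0.990% with the mother only. In control eggs they took 24.9% to 25.9%, and in eggs of BaP-fed mothers 23.6% to 25.9%. The libraries of both crosses were unlike eggs in this set. It was chosen for a gap between control eggs and control embryos, which fixes part of that difference. One library stood apart. Both-parents replicate 2 had a mean Pearson correlation of 0.921 with the other libraries of its cross, across 18554 transcripts of at least 2 CPM on the log2 scale, where the other 3 had 0.934 to 0.937. It also held the 1.81% of egg-enriched counts, and results that rest on it are given with and without it. On these means, all 4 both-parents libraries correlated more with the mother-only libraries than with their own cross. The means with mother-only libraries were 0.941, 0.925, 0.944 and 0.940 for replicates 1 to 4. That order rests in part on replicate 2, with which replicates 1, 3 and 4 correlated at 0.918, 0.927 and 0.916. Without it, replicates 1 and 3 correlated at 0.946, 1 and 4 at 0.945, and 3 and 4 at 0.939. Mother-only libraries had 0.942 to 0.948 within their own cross.

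No transcript was called different between embryos with both parents BaP-fed and those with the mother only. Of 30894 transcripts tested, 0 (0%) passed at an adjusted p under 0.05 by the quasi-likelihood test of edgeR with p-values adjusted after Benjamini and Hochberg, and the smallest adjusted p was 0.709. That fit took in all 16 embryo libraries. Fitted with the 8 libraries of these crosses alone, 0 of 28355 passed and the smallest edgeR adjusted p was 0.103. At an unadjusted p under 0.05 there were 2042 transcripts (6.61%), 1154 higher (3.74%) and 888 lower (2.87%), where 1545 would be expected if p-values were spread evenly. limma's voom with a quality weight per library also called 0, and DESeq2 called 115 of 34124 (0.337%), 54 higher and 61 lower. Of those 115, 52 (45.2%) had no count in at least 1 of the 8 libraries, as had 17.1% of the 34124. Under control mothers the father's diet gave 128 lower (0.414%) and 3 higher (0.00971%) in edgeR, 131 in all (0.424%), beside 801 in DESeq2 (2.41%) and 186 with voom (0.602%). Its unadjusted p was under 0.05 for 3428 transcripts (11.1%), 4.53% higher and 6.56% lower.

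Most fold changes were estimated closely enough to bound them. For 16130 of 18554 transcripts of at least 2 CPM (86.9%), the 95% interval of the log2 fold change, unadjusted for the number of transcripts, lay within a 2-fold change in either direction. The median standard error was 0.17 on the log2 scale. The middle 90% of log2 fold changes, both parents minus mother only, ran from -0.33 to 0.47, and 245 (1.32%) exceeded 2-fold, 169 upward and 76 downward. The same range under control mothers, father only minus control, was -0.55 to 0.44.

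**Figure D1:**
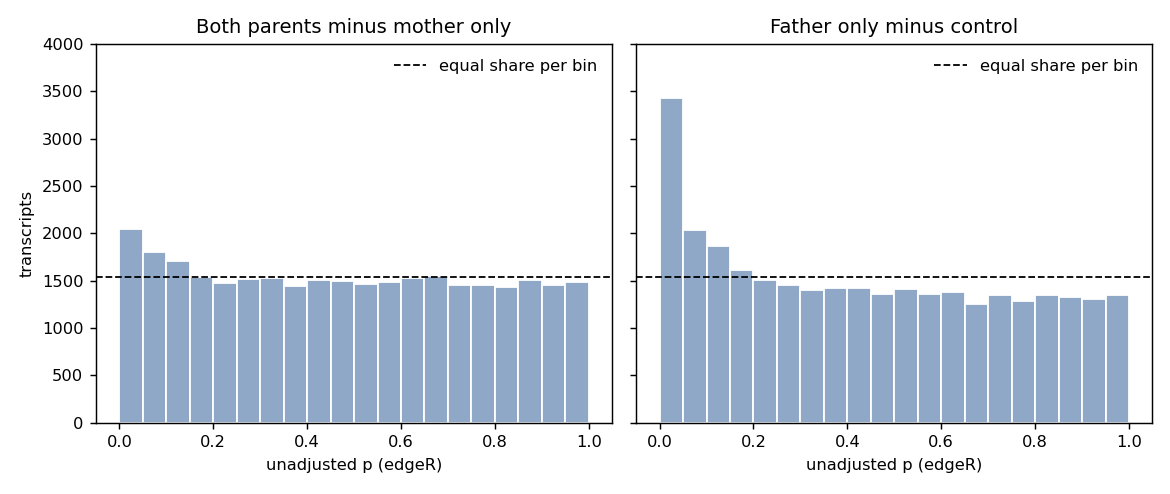
Number of transcripts (vertical axis) by unadjusted edgeR p in bins of 0.05 (horizontal axis), for both parents minus mother only (left) and father only minus control (right); the dashed line is an equal share per bin. The first bin holds 2042 transcripts on the left and 3428 on the right.

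Groups did not overlap for 1261 transcripts (4.08%), 707 with every both-parents library above every mother-only library (2.29%) and 554 below (1.79%). If the libraries of 4 against 4 were exchangeable, a share of 0.0286 would separate, both directions together. Much of this count therefore needs no difference between the crosses. Among those of at least 2 CPM over the 8 libraries, 396 were above, with a median log2 fold change of 0.43 and a median level of 6.72 CPM. Another 476 were below, with a median of -0.22 and a median level of 67.1 CPM. All 18706 transcripts at that level had a median of 12.7 CPM. Among these separated transcripts, the higher were mostly less abundant ones with larger fold changes, and the lower were mostly abundant ones with small fold changes. A scarce and more variable transcript needs a larger fold change to separate, so the choice fixes part of this link. The tilt is also not particular to the separated ones. Over all transcripts of 2 to 10 CPM the median log2 fold change was 0.06, and at 100 CPM or more it was -0.10. Median lengths were 2872 bases for the 396 separated above and 2078 bases for the 476 below, against 2205 bases for all 18706.

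The transcripts named here are the 2 higher and 2 lower ones of smallest p among those of at least 2 CPM whose groups did not overlap, since none passed. That choice fixes the separation of their groups. Picking the smallest p also tends to inflate their fold changes, which their intervals do not allow for. ENSDART00000010477.8 (2358 bases) had 12.9, 15.3, 16.1 and 31.3 CPM with both parents BaP-fed, against 8.19, 9.40, 4.32 and 6.11 CPM with the mother only. Every both-parents library was above every mother-only library, and replicate 4 was the highest. Its log2 fold change was 1.43 ± 0.30 (SE; 95% interval 0.81 to 2.06; edgeR unadjusted p = 0.000213, adjusted p = 0.709). It had 4.15 to 7.18 CPM with the father only and 5.65 to 9.54 CPM in control embryos, so both parents was the one cross above 10 CPM in every library. Per length, its mean was 7.79 TPM (a level per transcript length) with both parents and 2.78 TPM with the mother only, and 10.4 TPM in control eggs.

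ENSDART00000121994.3 (4563 bases) had 14.7, 10.9, 15.04 and 11.1 CPM with both parents, against 9.21, 8.12, 6.82 and 5.37 CPM with the mother only. The groups did not overlap, as the choice required, and the spread within each was smaller than the gap between their means. The log2 fold change was 0.81 ± 0.17 (SE; 95% interval 0.45 to 1.17; edgeR unadjusted p = 0.000263, adjusted p = 0.709). Under control mothers the values ran the other way, 5.32 to 6.72 CPM with the father only and 8.06 to 10.4 CPM in controls (log2 fold change -0.59 ± 0.17 SE, edgeR adjusted p = 0.169). The difference between these father effects, the interaction of both diets, was 1.40 ± 0.24 on the log2 scale (edgeR adjusted p = 0.0157), and it passed without each of the 16 libraries in turn and under the 7 other settings.

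ENSDART00000098010.2 (1494 bases) had the smallest p of all transcripts tested. It had 23.4, 21.9, 27.9 and 21.7 CPM with both parents, against 35.1, 33.4, 33.1 and 35.6 CPM with the mother only. The mother-only libraries lay within 3 CPM of each other, and all 4 both-parents libraries were below them. The log2 fold change was -0.53 ± 0.10 (SE; 95% interval -0.74 to -0.33; edgeR unadjusted p = 6.25e-05, adjusted p = 0.709). Father only (36.5 to 42.9 CPM) and control (31.9 to 41.1 CPM) overlapped, and the interaction of -0.60 ± 0.14 did not pass (edgeR adjusted p = 0.0543).

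ENSDART00000063665.7 (1953 bases) had 31.3, 30.5, 34.5 and 33.5 CPM with both parents, against 38.6, 43.2, 40.4 and 46.6 CPM with the mother only. The both-parents libraries were all below the mother-only libraries, with a log2 fold change of -0.38 ± 0.08 (SE; 95% interval -0.55 to -0.21; edgeR unadjusted p = 0.000312, adjusted p = 0.709). Father only had 36.6 to 42.0 CPM and control 31.8 to 37.8 CPM, which overlap. Its interaction of -0.53 ± 0.11 passed narrowly (edgeR adjusted p = 0.0454), as did that of ENSDART00000010477.8 at 1.89 ± 0.42 (edgeR adjusted p = 0.0469). These calls held without 2 and 1 of the 16 libraries left out in turn, with adjusted p of 0.0446 to 0.113 and 0.0403 to 0.115. With a replicate block their adjusted p in edgeR were 0.0812 and 0.0619, without a filter 0.0794 and 0.0717, and with upper-quartile factors ENSDART00000063665.7 had 0.0528. All 4 were chosen for their difference between both parents and mother only, which is one side of the interaction, so the choice itself raises it. DESeq2 called all 4 in both parents minus mother only (adjusted p from 0.000269 to 0.00513).

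**Figure D2:**
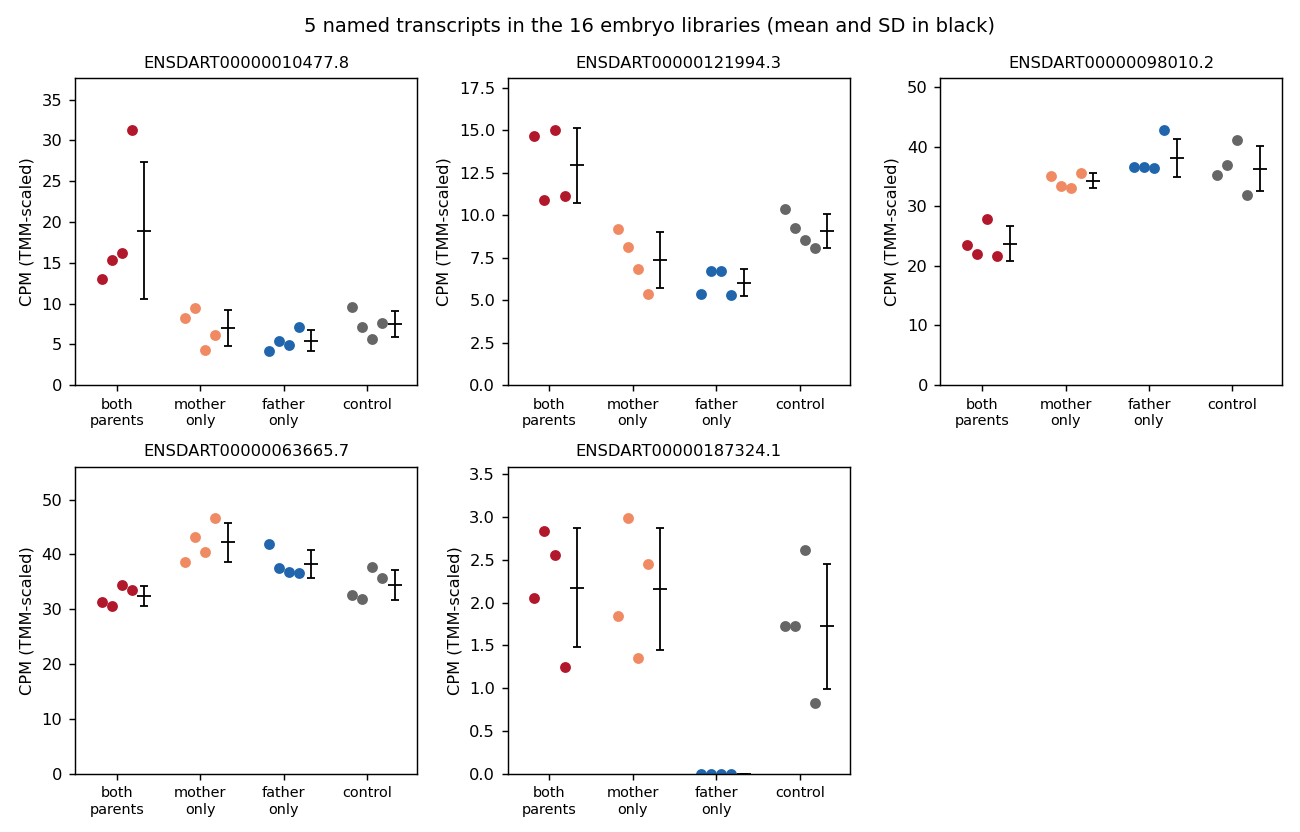
CPM scaled by TMM factors (vertical axes) of the 5 named transcripts in each embryo library, by cross (both parents, mother only, father only, control); points are libraries and black bars the mean and SD of 4. ENSDART00000010477.8 and ENSDART00000121994.3 are above, and ENSDART00000098010.2 and ENSDART00000063665.7 below, the mother-only libraries in every both-parents library, and ENSDART00000187324.1 is at 0 in all father-only libraries.

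The transcripts lower with the father only than in control embryos were next followed in embryos of BaP-fed mothers. These 128 transcripts had been called from the father-only and control libraries, of which none is a both-parents or mother-only library, and from a spread estimated on all 16. Relative to the mean of the control libraries, the median of the 128 was 0.26, -0.12, 0.26 and 0.24 on the log2 scale in both-parents replicates 1 to 4, against -0.08, -0.28, -0.06 and -0.21 in mother-only replicates 1 to 4. There were 3 both-parents libraries above all mother-only libraries, whereas both-parents replicate 2 lay within the mother-only range. In father-only libraries the same median was -0.79 to -0.57. Summed, the 128 had 5123, 4041, 5156 and 5125 CPM with both parents and 4122, 3781, 4300 and 3816 CPM with the mother only.

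None of the 128 passed in both parents minus mother only, but 125 had a log2 fold change above 0, against 53.6% of all transcripts tested. Their median was 0.34 (10th to 90th percentile 0.12 to 0.47), where it was -0.73 in father only minus control and 0.02 for all tested in both parents minus mother only. At an unadjusted p under 0.05, 91 of the 128 were higher and 0 lower, beside 3.74% and 2.87% of all tested. Groups did not overlap for 27, all higher, beside 2.29%. The spread behind the 128 calls took in the both-parents and mother-only libraries too. The choice can therefore favour transcripts that vary little in them, and all tested transcripts are no matched reference for these counts. The range over the 128 was -0.04 to 0.73. With the same 128 kept, the median stayed between 0.29 and 0.43 without each library in turn, and it was 0.43 without both-parents replicate 2. Leaving out a father-only or control library bears on these fold changes mainly through scaling, so those fits say little. The 3 transcripts higher with the father only had a median of -0.17, and 1 of them was above 0.

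These 128 are long, with a median of 4855 bases against 2199 bases for transcripts of at least 2 CPM, and isoforms of a gene can share reads that Salmon divides by estimate, so they need not be separate events. Transcripts over 5000 bases had a median of 0.05 in both parents minus mother only. The list itself depended on the fit and on single libraries. Fitted with the 8 father-only and control libraries alone, 57 transcripts were called, 20 higher and 37 lower. Of these 57, 32 were among the 131 of the main fit. The number of calls in father only minus control was 131 with all libraries. It came to 2, 31, 189 and 96 when father-only replicate 1, 2, 3 or 4 was left out. It came to 85, 2, 69 and 4 when control replicate 1, 2, 3 or 4 was left out. It was 344 without both-parents replicate 2, which is in neither cross but enters the fit, where it bears on the shared spread and on which transcripts are tested (31753 without it). Across the 18554 transcripts of at least 2 CPM, which are not independent, the fold changes of the father's diet under BaP-fed and control mothers had a Pearson r of 0.06 and a Spearman rho of -0.12, and -0.06 and -0.24 without both-parents replicate 2.

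**Figure D3:**
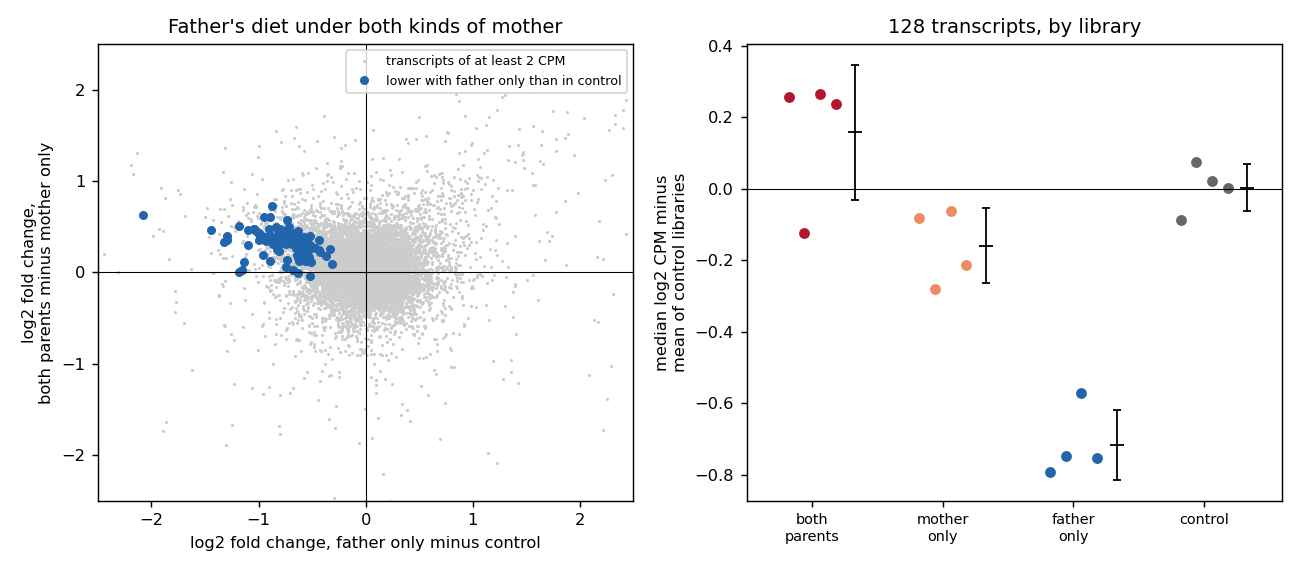
Left, log2 fold change of both parents minus mother only (vertical) against father only minus control (horizontal) for transcripts of at least 2 CPM (grey) and the 128 lower with the father only (blue; 2 lie beyond the left edge). Right, median over the 128 of log2 CPM minus the mean of the control libraries, for each library with the mean and SD of 4 in black; 3 both-parents libraries are at 0.24 to 0.26, and both-parents replicate 2 is at -0.12.

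The interaction tested directly whether the father's effect differed between BaP-fed and control mothers. It gave 278 calls (0.9%), 254 positive (0.822%) and 24 negative (0.0777%), in edgeR, beside 1074 in DESeq2 (3.64%) and 484 with voom (1.57%), where a positive value means that the father's effect was more upward under BaP-fed mothers. ENSDART00000187324.1 (4813 bases) had its smallest p. It had 2.06, 2.84, 2.55 and 1.25 CPM with both parents and 1.84, 2.99, 1.36 and 2.45 CPM with the mother only. These groups overlapped, and the log2 fold change was 0.01 ± 0.38 (SE; 95% interval -0.81 to 0.84; edgeR adjusted p = 0.997). With the father only it had 0 counts in all 4 libraries, and controls had 0.828 to 2.61 CPM. With 3 counts in the whole father-only cross taken as the floor, the control mean was 69.8-fold above it. The edgeR adjusted p was 0.00121 for father only minus control and 0.0052 for the interaction. That floor covers counting error only. The ratio leaves out the spread of the controls and the division of reads among isoforms, so it is no lower bound. The interaction count moved by over 1.5 times, to between 90 and 422, without any 1 library other than father-only replicate 3, without which it was 330.

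Stored egg RNA, RNA of the embryo and transcript size were then followed as classes. In both parents minus mother only, the median egg-enriched transcript was at 0.32 on the log2 scale, and 2257 of the 3002 that were tested (75.2%) lay above 0. It was 0.12 with a quality weight per library (voom). When both-parents replicate 2 was left out it was 0.00, with 50.5% of 3083 above 0. Embryo-enriched transcripts (at least 3 higher on the log2 scale in control embryos than in control eggs) had a median of -0.05, with 40.3% of 3040 above 0, and -0.01 without that library. Without any other 1 library the egg-enriched median was 0.30 to 0.39. In father only minus control, egg-enriched transcripts had a median of 0.34 with 77.0% of 3002 above 0, though the class was chosen for low levels in those same control embryos.

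Length and abundance classes kept their direction without that library. Transcripts over 5000 bases had a median of 0.05, with 61.1% of 2529 above 0, and 0.04 without replicate 2. Those under 1000 bases had a median of -0.04, with 42.2% of 2808 above 0, and -0.02 without it. All 18554 transcripts of at least 2 CPM had a median of -0.01 and 47.5% above 0. At an unadjusted edgeR p under 0.05, 721 of them were higher and 750 lower. The 1989 transcripts of at least 100 CPM had a median of -0.10 and 15.3% above 0, with 14 higher and 290 lower at an unadjusted p under 0.05. The 8137 transcripts of 2 to 10 CPM had a median of 0.06 and 59.5% above 0, with 424 higher and 95 lower. In father only minus control these medians were -0.10 over 5000 bases, 0.07 under 1000 bases, 0.09 at 100 CPM or more and -0.02 at 2 to 10 CPM, each of the other sign. RLE and upper-quartile factors gave the class over 5000 bases a median of 0.05 and 0.04, and the other length and abundance classes were not followed under them.

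**Figure D4:**
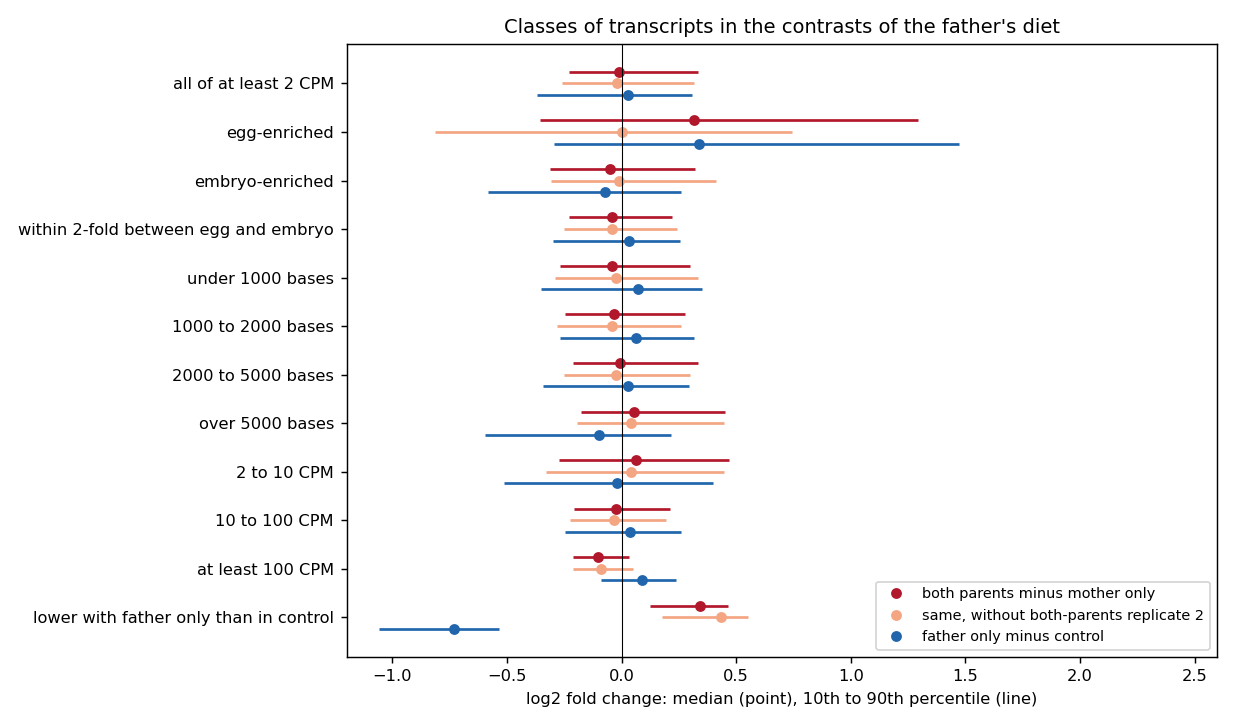
Log2 fold change (horizontal axis; points are medians, lines the 10th to 90th percentiles) of classes of transcripts (vertical axis) in both parents minus mother only, in the same without both-parents replicate 2, and in father only minus control. The egg-enriched median is 0.32 with and 0.00 without both-parents replicate 2; the stage classes and the last class were chosen with control embryos, which fixes part of their position in father only minus control.

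Of 4 measures per library, none passed after adjustment. The smallest exact p that 4 against 4 libraries can give is 0.0286, and 0.114 after adjustment where the other 3 measures have large p, so a measure could not have passed alone. Egg-enriched transcripts took 0.922%, 1.81%, 0.960% and 0.903% of counts in both-parents replicates 1 to 4, against 0.990%, 0.908%, 0.834% and 0.850% in mother-only replicates 1 to 4. Apart from replicate 2 the groups overlapped, and the means were 1.15% ± 0.443 and 0.896% ± 0.0708 (SD, n = 4; two-sided exact permutation p = 0.257, adjusted over 4 measures 0.343). Without replicate 2 the both-parents mean was 0.928% ± 0.0289. Embryo-enriched transcripts took 20.1% ± 1.23 with both parents and 20.6% ± 0.405 with the mother only (SD, n = 4; exact permutation p = 0.543, adjusted 0.543), with 18.2% in both-parents replicate 2.

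Transcripts over 5000 bases (4564) took 16.1%, 16.2%, 17.1% and 16.2% of counts with both parents, against 16.03%, 15.8%, 16.3% and 15.4% with the mother only. The groups overlapped, with means of 16.4% ± 0.474 and 15.9% ± 0.405 (SD, n = 4; exact permutation p = 0.2, adjusted 0.343). The difference of 0.474 percentage points had the other sign from that under control mothers, where the means were 14.6% ± 0.298 with the father only and 16.05% ± 0.373 in controls; the difference between these differences was not tested.

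The number of transcripts with a count was 37617, 37689, 37598 and 37518 with both parents, against 37804, 36601, 37066 and 36402 with the mother only. Of the mother-only libraries 3 were below all both-parents libraries, and mother-only replicate 1, which had the most counts of the 8, was above them. Means were 37606 ± 70.3 and 36968 ± 623 (SD, n = 4; exact permutation p = 0.143, adjusted 0.343). Mother-only replicate 1 alone broke the separation, so leaving it out fixes the exact permutation p at 0.0286, the smallest that 4 against 3 libraries can give. The difference was then 916, and that p is no test. Without any other library of these crosses the exact permutation p was 0.171 to 0.257. With every library thinned to the smallest total of the embryo libraries, 37081 to 37486 transcripts with both parents and 36189 to 37241 with the mother only would keep a count (exact permutation p = 0.0857). The effective length that Salmon gives each transcript was examined after the data were seen. For transcripts of 1000 to 1500 bases its median was 72.1% to 72.5% of the full length with both parents and 71.0% to 71.9% with the mother only, which do not overlap. For transcripts over 5000 bases it was 81.5% to 82.2% with both parents and 81.1% to 81.8% with the mother only, which overlap, and its part in the other results was not tested.

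**Figure D5:**
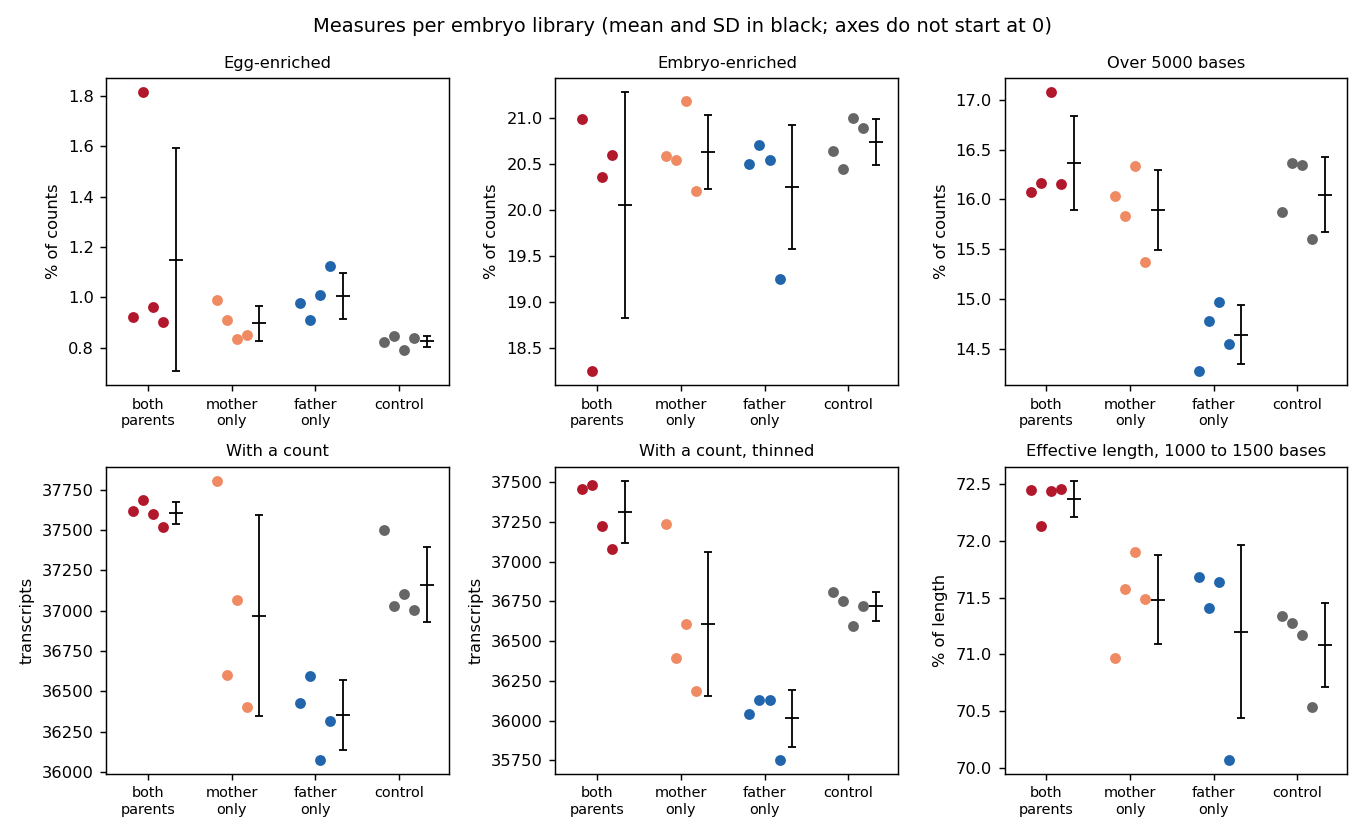
Measures per embryo library by cross (both parents, mother only, father only, control): shares of counts in %, numbers of transcripts, and the median effective length as % of transcript length; points are libraries and black bars the mean and SD of 4. Both-parents replicate 2 is alone at 1.81% for egg-enriched and 18.2% for embryo-enriched transcripts, and 3 of 4 mother-only libraries have fewer transcripts with a count than any both-parents library.

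Some transcripts were present in every library of one cross and in none of the other. A count was found in all 4 both-parents and in 0 of 4 mother-only libraries for 46 transcripts (0.0804% of the 57192), and in all 4 mother-only and 0 of 4 both-parents libraries for 16 (0.028%). Under control mothers the same patterns held for 27 with the father only (0.0472%) and 57 in controls (0.0997%). For the 46 and the 16, the median of their mean counts was 2.78 and 3.39, and 4 of the 46 and 3 of the 16 had at least 10 counts in every library that held them. The most abundant of the 46 (1799 bases) had 28.5, 140.2, 157.9 and 91.2 estimated counts with both parents, 0 in all mother-only libraries and 0 in all father-only and control libraries. It did not pass (edgeR unadjusted p = 9.42e-05, adjusted p = 0.709). The most abundant of the 16 (2439 bases) had 0 in all both-parents libraries and 124.4, 36.9, 16.2 and 57.0 with the mother only, and both father-only and control libraries ranged from 0 upward.

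Leaving out 1 library gave a call in 2 of 16 fits, each of a transcript at 0 in one cross once that library was gone. The 2 were found after their values were seen. ENSDART00000180319.1 (1491 bases) had 0, 5.57, 0 and 0 CPM with both parents and 3.69, 2.64, 1.31 and 2.96 CPM with the mother only, and was lower without both-parents replicate 2 (edgeR adjusted p = 0.000787; 0.953 with all libraries). ENSDART00000191034.1 (1079 bases) had 3.76, 2.73, 3.41 and 2.14 CPM with both parents and 0, 0, 0 and 4.04 CPM with the mother only, and was higher without mother-only replicate 4 (edgeR adjusted p = 0.0332; 0.910 with all libraries). In both cases that library held more than any library of the other cross.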

How the data were processed

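Total RNA of zebrafish eggs and embryos was depleted of ribosomal RNA and read from both fragment ends, per the labels. Per the submitters' processing notes, FastQC, Salmon and DESeq2 were used with the build GRCz11. The version of each program is not given in the sources used here. The deposited tables hold, per the file headers, lengths, effective lengths, TPM values and estimated counts (expected counts) for 57192 transcripts. The deposited TPM was used only for levels per length, since DESeq2 and edgeR need counts. The 32 bisulfite samples were not used here.

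Counts were rounded and fitted with edgeR 4.0.16 (limma 3.58.1, R 4.3.3) over the 16 embryo libraries, with 1 mean per cross, TMM factors, filterByExpr by group, robust glmQLFit and glmQLFTest; a call is an adjusted p under 0.05. CPM is scaled by TMM factors, and log2 CPM uses a prior count of 2. Shares use total counts. DESeq2 1.42.0 and voom weights served as alternatives, beside other factors and filters, a replicate block, the 8 libraries alone and omission of each library. Named transcripts had at least 2 CPM, no overlap between the crosses and the smallest p in each direction (2 higher, 2 lower), plus that of smallest interaction p. The edgeR step was tested on simulated data, and the permutation test on fixed values with known answers. The members, classes and tests were chosen with earlier results of these data known.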

Additional observations from a re-analysis of the deposited data

Results flagged for a closer look

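Both-parents replicate 2 lay far from the other 3 libraries of its cross in its share of egg-enriched counts, 1.81%. Both-parents replicate 3 did so in its share of counts in transcripts over 5000 bases, 17.1%, and father-only replicate 4 in its share of embryo-enriched counts, 19.2%. For ENSDART00000098010.2, father-only replicate 4 was far above the other 3 at 42.9 CPM. These are 4 of 36 groups examined, and chance alone flags about 1 in 20. The father's effect differed between BaP-fed and control mothers for 278 transcripts by the interaction test in edgeR. Among named transcripts the interaction on the log2 scale was 1.89 for ENSDART00000010477.8, 1.40 for ENSDART00000121994.3, -0.53 for ENSDART00000063665.7 and 8.81 for ENSDART00000187324.1. The last value is fitted against a cross with no counts and is no bound. It depends on the prior count of the edgeR fit, which is not the 2 used for log2 CPM.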

How the results depend on the processing

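The count of 0 for both parents minus mother only became 115 in DESeq2, 0 to 1 without a library, and stayed 0 under the 7 other settings. The 131 calls of father only minus control became 77 without a filter, 279 with a stricter one, 801 in DESeq2, 69 with a replicate block, 57 in the 8 libraries alone and 2 to 344 without a library. The 278 interaction calls became 151 without a filter, 1074 in DESeq2, 484 with voom weights, 144 with a replicate block and 90 to 422 without a library. The 4 named transcripts kept their direction in both parents minus mother only throughout. They were chosen for groups that did not overlap, which largely fixes that direction when a library is left out. ENSDART00000187324.1, near 0 there, turned to -0.00198 with upper-quartile factors, -0.12 with voom weights and -0.071 with a replicate block, and ran from -0.16 to 0.21 without a library; its interaction missed the threshold with voom weights (limma adjusted p = 0.0663). The difference in the share of embryo-enriched counts was -0.893 to 0.0218 percentage points without a library, turning to 0.0218 without both-parents replicate 2. That in transcripts with a count was 449 to 916. Other differences between per-library measures kept their direction and side of the threshold; the egg-enriched one was 0.0327 to 0.336 percentage points without a library. The cause of these changes was not tested.

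The same replicate numbers appear in all crosses, but no label says that they mark a shared tank or day. Deviations of same-numbered both-parents and mother-only libraries correlated at 0.108, 0.0828, 0.182 and 0.112, and all 4 both-parents libraries correlated best with their own number. Same-numbered libraries of the other pairs of crosses correlated at -0.123 to 0.0696. Number 2 was under 0.1 but above every same-numbered value of the other pairs of crosses. The numbers were not taken as pairs in the main fit, into which only the labelled cross entered. Both-parents and mother-only libraries may still be paired, and the permutation tests do not allow for that. With a replicate block shared by all embryo crosses, both parents minus mother only still gave 0 calls (smallest edgeR adjusted p = 0.742). That block does not model a pairing of these crosses alone, and no paired fit of their libraries was run. Counts per gene were not run because the rows could not be joined to genes. Depth limits the scarce transcripts most: those present in one cross and absent in the other had mostly under 10 counts.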
